A study of Mus musculus with 15 samples.

Results

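Keratins are the proteins of the intermediate filaments of epithelial cells. The keratin genes described here were chosen by name and count: protein-coding mouse genes called Krt followed by a number, keratin-associated proteins left out, with a raw count of 10 or more in 2 or more of the 15 libraries. Of 53 keratin genes in the count tables, 32 met this rule, against 12617 protein-coding genes that met it among 37583 genes in all. They comprise 17 type I and 15 type II keratins. A count of 10 or more in every library was reached by 14 of the 32. The others entered through only some of the libraries, so totals over the members describe them and support nothing.

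A keratin filament forms from pairs of an acidic type I and a basic type II protein, and each layer of a stratified epithelium makes its own pair. Basal cells of the epidermis make Krt5 with Krt14, and cells that leave the basal layer switch to Krt1 with Krt10. Krt6a, Krt6b, Krt16 and Krt17 are induced in wounds, in hyperproliferative epidermis and in skin tumours. Krt8 and Krt18 belong to simple epithelia, and Krt4 with Krt13 to internal stratified epithelia such as the oral mucosa and oesophagus.

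RNA was sequenced from cells of skin tumours of C57BL/6 mice that had received DMBA/TPA, the classical carcinogen and tumour promoter pair, for over 24 weeks. Cells were sorted by CD34 and by the a6 integrin chain (gene Itga6), a basal surface protein, into CD34+ a6-high, CD34- a6-high and CD34- a6-low populations. Each population had 2 libraries labelled KO (K14-cre; SIRT6 flox/flox) and 3 labelled WT, and all mice shared the carcinogen treatment. The Cre gene is under the K14 promoter, that of a keratin in this set, so recombination is directed to cells with an active basal keratin promoter. The ages of the mice are not given in the sources used here, and no label ties the libraries of a group to different animals. P-values here measure only how much these samples vary, which may include technical variation. Because a library is bulk RNA, fewer cells of a type and less RNA per cell cannot be told apart.

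Libraries held 10.08 to 28.62 M gene counts, with a median of 20.27 M. Levels are given as CPM, counts divided by the TMM-scaled library size in M. Sirt6 lay between 5.07 and 8.53 CPM in the 6 libraries labelled KO and between 4.45 and 10.5 CPM in the 9 labelled WT, so its whole-gene count did not separate the genotypes, and a count over the whole gene need not see a deletion of part of it. Cd34 was at 163 to 214 CPM in the CD34+ libraries and at 4.51 to 40.3 CPM in the others. Itga6 ranged from 263 to 576 CPM among a6-high libraries. In the a6-low libraries it was at 67.9 (KO1), 94.1 (WT2) and 174 (WT3) CPM, but at 445.5 (KO2) and 471 (WT1) CPM, within the a6-high range. The counts of genes past the test in comparisons with a6-low cells, and between genotypes within them, are therefore also given with those last 2 libraries set aside. The sums over populations keep them. Markers of keratinocytes other than keratins (9 genes) summed to 9498 to 15850 CPM in every library. These sums were mostly Perp (5472 to 11050 CPM) and Sfn (1751 to 5201 CPM). Trp63 was at 153.1 to 263.3 CPM and Dsp at 244.1 to 707.5 CPM. Lamb3 (3.998 to 211.1 CPM), Itgb4 (18.1 to 256.6 CPM) and Col17a1 (22.14 to 514.2 CPM) varied more widely, so the sum does not describe each gene.

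Keratin transcripts made up 6.92% to 10.1% of the gene counts of a library, with a median of 8.305%. Krt14 was the most abundant of all genes (mean 48830 CPM over the 15 libraries) and Krt5 was second (7808 CPM). Krt17, Krt6a, Krt16 and Krt1 ranked 6, 9, 11 and 20. Per kilobase of transcript, in CD34+ a6-high cells, Krt14 stood at 26870 ± 7193 CPM per kb (SD, n = 5), followed by Krt17 at 6429 ± 1768, Krt16 at 3848 ± 533, Krt6a at 3347 ± 1144 and Krt5 at 2884 ± 960 CPM per kb. In CD34- a6-high cells the order of these levels was Krt14 at 34360 ± 8443, Krt5 at 4636 ± 1314, Krt16 at 2143 ± 763 and Krt17 at 2004 ± 615 CPM per kb. Krt14 stood apart from every other keratin in both populations, whereas Krt16, Krt6a and Krt5 in the first, and Krt16 and Krt17 in the second, were closer to each other than their spread. Keratins other than Krt1, Krt5, Krt6a, Krt6b, Krt10, Krt14, Krt15, Krt16 and Krt17 together took 0.0577% to 1.52% of the keratin counts.

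**Figure D1:**
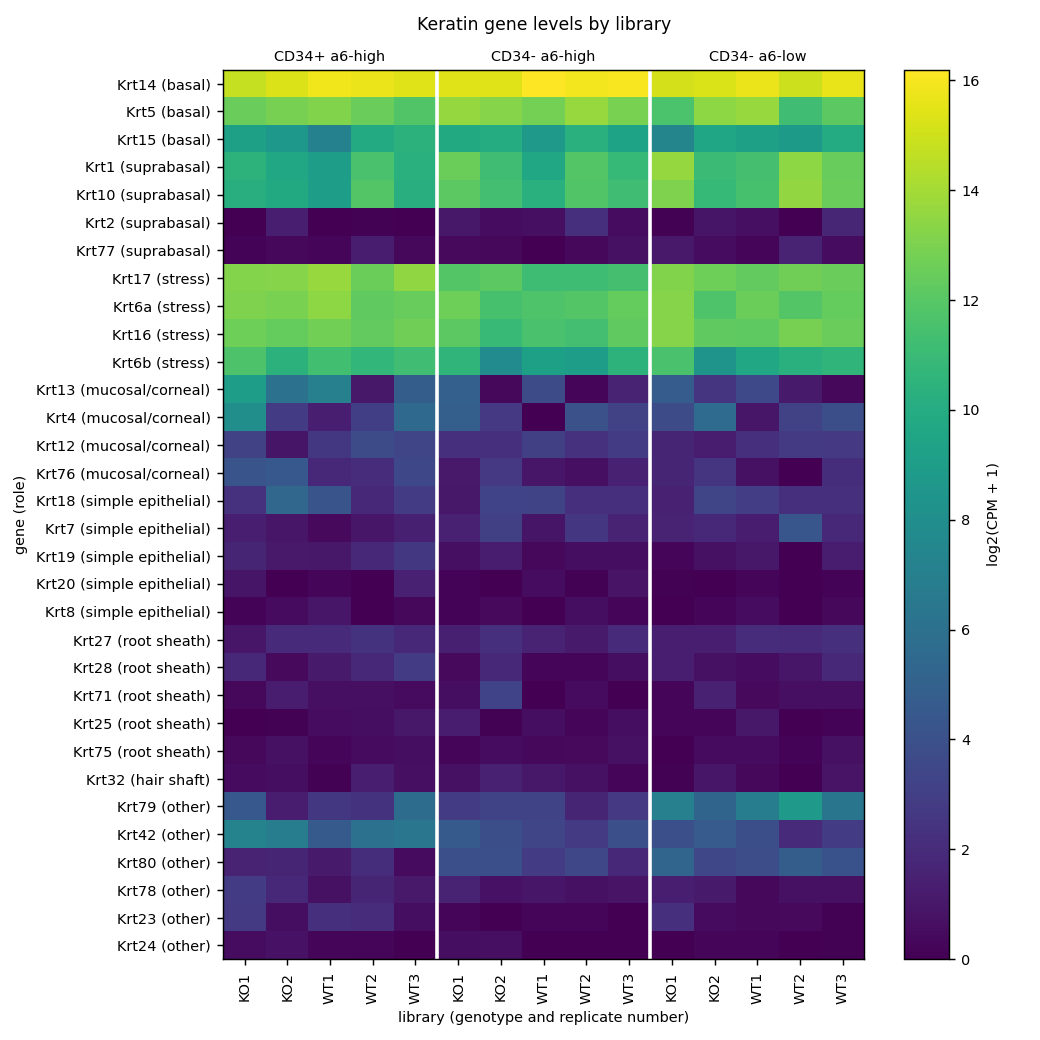
Levels of the 32 keratin genes (rows, by role) in the 15 libraries (columns, by population and by genotype with replicate number), as log2(CPM + 1) in colour. Krt14 is the brightest row in every library, and the mucosal, simple, root sheath and hair shaft keratins stay at the dark end except Krt13 and Krt4 in single libraries.

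The keratin counts were divided by role in each library. Krt6a, Krt6b, Krt16 and Krt17 took 20.6% to 41.8% of the keratin counts in CD34+ a6-high cells, 9.89% to 18.8% in CD34- a6-high cells and 18.3% to 33.6% in CD34- a6-low cells. The first and second ranges do not overlap, while the third overlaps both. The basal keratins took 52.8% to 71.5%, 68.7% to 87.8% and 43.5% to 75.2% in the same order. The suprabasal keratins took 0.980% to 7.82%, 2.20% to 12.4% and 5.57% to 30.0%. The libraries with the largest suprabasal share were the a6-low libraries WT2 (30.0%) and KO1, which were also those with the least Itga6.

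**Figure D2:**
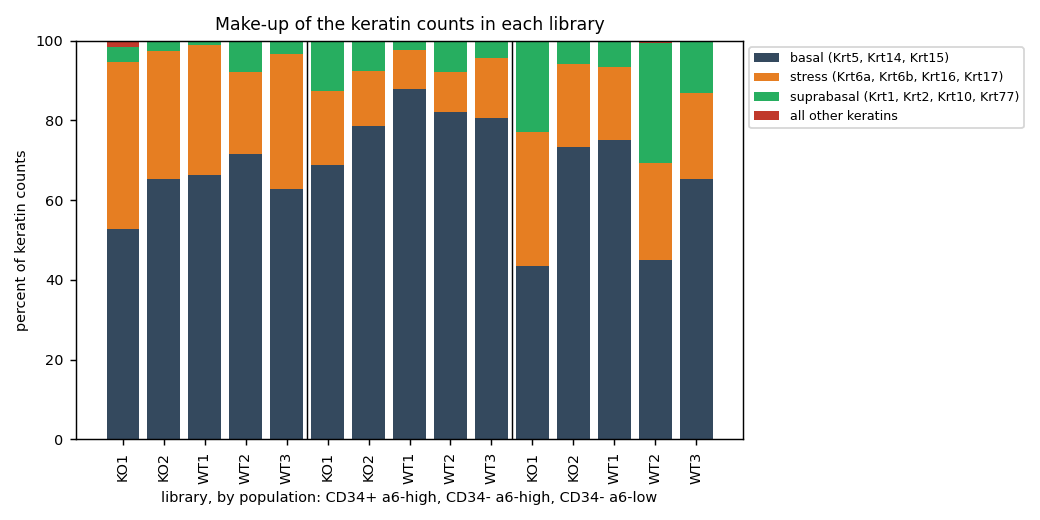
Share of the keratin counts (percent, y axis from 0 to 100) taken by the basal, stress, suprabasal and all other keratins in each of the 15 libraries (x axis, by population). The stress share of the 5 CD34+ a6-high libraries, 20.6% to 41.8%, lies above that of the 5 CD34- a6-high libraries, 9.89% to 18.8%.

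CD34+ a6-high cells were first compared with CD34- a6-high cells, the comparison that sets the tumour propagating population apart from its CD34- neighbour. Krt17 and Krt42 rose in the CD34+ cells and no keratin fell. Krt17, a stress keratin of tumours and hair follicles, was 3.12-fold higher (log2 difference 1.64 ± 0.21 SE, edgeR adjusted p = 0.00786). Krt42, a type I keratin known from the nail unit, was 6.45-fold higher (2.69 ± 0.46, edgeR adjusted p = 0.0150). These are 2 of 32 keratins, against 1.17% of the 14652 genes tested (0.846% higher and 0.321% lower). The median log2 difference of the 32 keratins was 0.68, against -0.02 over all genes. Of the 32, 21 were above 0, against 47.2% of all genes. Members could enter through the side where they are high, as Krt23 did, with at most 6 counts in any CD34- a6-high library. These totals therefore describe the members and support nothing.

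Krt17 was at 9149, 9876, 13310, 5995 and 11520 CPM in the CD34+ libraries KO1, KO2, WT1, WT2 and WT3. It was at 3667, 4492, 2297, 2304 and 2782 CPM in the CD34- a6-high libraries in the same order. Every CD34+ library lay above every CD34- a6-high library, and the 3 WT labels showed the pattern as the 2 KO labels did. Krt17 was at 0.111 to 0.323 of the Krt14 count in the CD34+ libraries and at 0.0306 to 0.104 of it in the CD34- a6-high ones. Krt42 was at 152.5, 117, 22.6, 65.5 and 80.7 CPM in the CD34+ libraries and at 23.4, 13.6, 9.30, 5.78 and 14.6 CPM in the CD34- a6-high libraries. Within each label Krt42 was higher in the CD34+ library, but the WT1 CD34+ library (22.6 CPM) fell just below the KO1 CD34- library (23.4 CPM).

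The other stress keratins pointed the same way without passing this test. Krt16, the type I partner of Krt6, was at 6367, 5328, 6861, 4953 and 6603 CPM in the CD34+ libraries and at 4360, 1967, 3006, 2626 and 4808 CPM in the CD34- a6-high libraries. The groups did not overlap, and the log2 difference was 0.85 ± 0.28 (edgeR adjusted p = 0.152). Krt6b was at 3328, 1341, 2543, 1695 and 2436 CPM against 1578, 221, 578, 519 and 1442 CPM, a log2 difference of 1.39 ± 0.61 (edgeR adjusted p = 0.301). Krt6a was at 8662, 7961, 11260, 4781 and 5456 CPM against 6172, 2813, 3429, 3640 and 5269 CPM, with 2 CD34+ libraries inside the CD34- range. It had a log2 difference of 0.84 ± 0.34 (edgeR adjusted p = 0.251). Each of the 4 stress keratins was higher in the CD34+ library of all 5 labels. Krt6a and Krt6b share 50-base stretches with other genes over 57.2% and 50.1% of their transcripts, mostly with each other, and Krt16 over 37.6%, against 3.99% for Krt17 and 0.234% for Krt42. Because reads with more than 1 place to align were left uncounted, the levels of Krt6a, Krt6b and Krt16 are uncertain.

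Same-numbered libraries of a genotype deviated together in this pair of populations, at correlations from 0.13 (WT2) to 0.456 (KO1 and KO2, equal by construction). With the label as a block 793 genes passed (5.41% of those tested, 3.33% higher and 2.08% lower), among them 11 keratins. With the block 8 keratins rose in CD34+ cells. These were Krt23 (4.64 ± 0.44, edgeR adjusted p = 0.000988), Krt17 (1.63 ± 0.22, 0.00389), Krt42 (2.75 ± 0.47, 0.00992) and Krt13 (4.24 ± 0.72, 0.0100), and further Krt6b, Krt76, Krt18 and Krt16, whose edgeR adjusted p ran from 0.0110 to 0.0370. Krt80 (-2.41 ± 0.39, edgeR adjusted p = 0.00827), Krt1 (-1.14 ± 0.22, 0.0177) and Krt10 (-1.22 ± 0.27, 0.0308) fell. The set with the block thus joins 3 of the 4 stress keratins on the higher side and the main suprabasal pair on the lower side.

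Krt23, a type I keratin of low level, was at 5.75, 0.503, 3.54, 3.20 and 0.492 CPM in the CD34+ libraries and at 0.227, 0, 0.144, 0.143 and 0 CPM in the CD34- a6-high libraries. The groups did not overlap, yet 2 of the CD34+ libraries held only 11 and 6 counts. The unblocked test gave an edgeR adjusted p of 0.0548. Krt23 met the count rule through CD34+ and a6-low libraries only, so its difference is not independent of that rule. Krt13, the type I keratin of internal stratified epithelia, was at 520, 64.5, 134, 1.02 and 26.7 CPM against 29.8, 0.263, 12.4, 0.191 and 2.07 CPM. Krt13 varied widely among the CD34+ libraries and was still higher in the CD34+ library of each label. Krt4, its type II partner, was at 257, 6.45, 1.53, 7.13 and 45.7 CPM in CD34+ cells, and was not higher in every label. Krt76, a keratin of the palate and gingiva, was at 17.8, 20.8, 2.44, 3.20 and 10.3 CPM against 1.14, 5.34, 0.937, 0.573 and 1.84 CPM, with a log2 difference of 2.41 ± 0.76 (edgeR adjusted p = 0.136).

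On the lower side, Krt80, a type II keratin that appears as epithelial cells differentiate, was at 1.89, 2.19, 1.29, 3.27 and 0.410 CPM in the CD34+ libraries and at 14.6, 14.7, 5.91, 10.1 and 2.61 CPM in the CD34- a6-high libraries. It was lower in the CD34+ library of all 5 labels, and 1 CD34- library (WT3) lay within the CD34+ range (log2 difference -2.37 ± 0.54, edgeR adjusted p = 0.0534). Krt2, a late suprabasal keratin, had the lowest log2 difference (-2.89 ± 1.37, edgeR adjusted p = 0.345), with 0 to 1.6 CPM in CD34+ cells and 0.438 to 3.77 CPM in CD34- a6-high cells. Krt7, a simple epithelial keratin, was at -1.66 ± 0.77 (edgeR adjusted p = 0.328). The basal keratins had small differences, with Krt14 at -0.34 ± 0.18 (edgeR adjusted p = 0.425), Krt5 at -0.69 ± 0.47 and Krt15, a basal keratin of follicle stem cells, at -0.47 ± 0.55.

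The calls rest on few libraries. Krt17 did not pass without the CD34- a6-high KO1 library (edgeR adjusted p = 0.0563), and Krt42 did not pass without the CD34+ KO1 (0.0618), CD34- a6-high KO1 (0.0801) or CD34- a6-high KO2 library (0.0938). The log2 differences without these libraries were 1.57 for Krt17 and 2.52 to 2.91 for Krt42. Without overlap of the libraries were Krt17, Krt16 and Krt23, 3 of 32 against 4.2% of all genes.

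**Figure D3:**
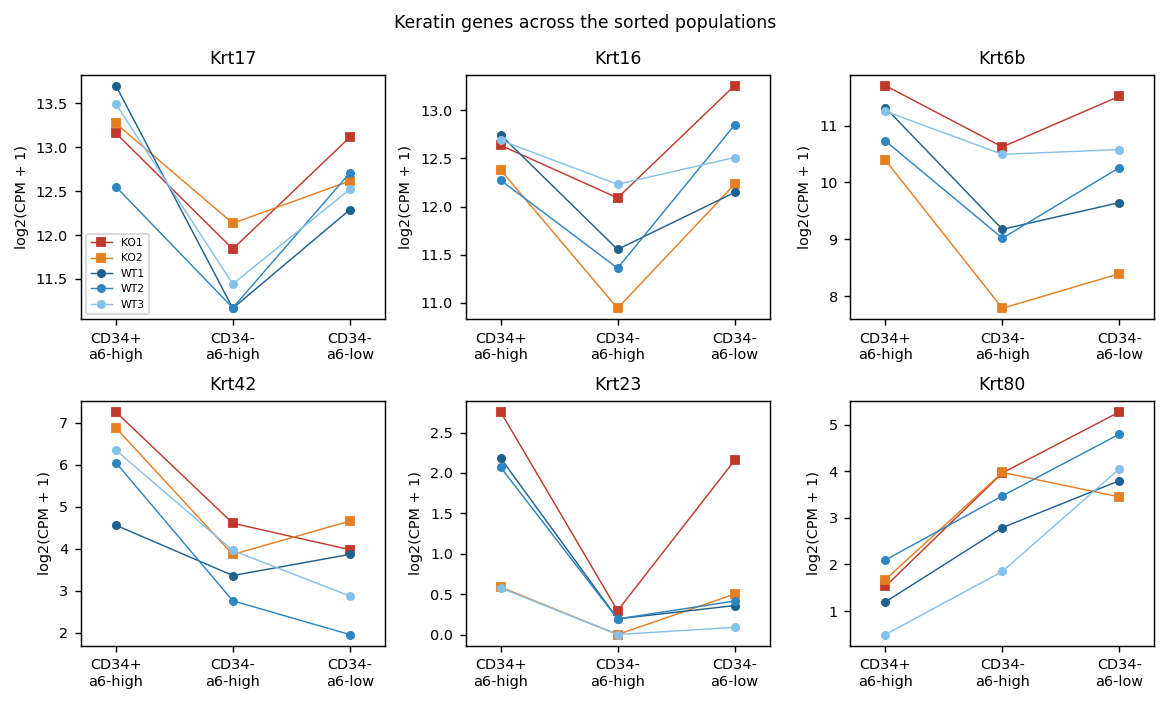
Levels of Krt17, Krt16, Krt6b, Krt42, Krt23 and Krt80 as log2(CPM + 1) in the 3 populations, with a line for each label (squares KO1 and KO2, circles WT1 to WT3). Every line falls from CD34+ to CD34- a6-high cells in the first 5 panels and rises in the Krt80 panel.

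The keratins that moved with CD34 did not lie in 1 place. In the order of the RefSeq gene table (GRCm38.p6), Krt14, Krt16, Krt17 and Krt42 are consecutive neighbours on chromosome 11, and Krt42 is followed by Eif1. Krt13 and Krt23 lie elsewhere in the same type I cluster, and Krt76, Krt1 and Krt80 in the type II cluster on chromosome 15. Krt14 and Krt17, with Krt16 between them, had estimates of opposite sign (log2 differences -0.34 and 1.64).

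The stretches before the start sites of 5 of the keratins that passed with the block are shown because they moved with CD34, the first 4 upwards and Krt10 downwards. They are the 250 bases upstream, 5′ to 3′ on the gene's strand (minus in each case), from RefSeq GRCm38.p6, whereas the counts were made on mm9. Krt42 lies at chr11:100269952-100270201, Krt13 at chr11:100121567-100121816, Krt23 at chr11:99493121-99493370, Krt76 at chr15:101892921-101893170 and Krt10 at chr11:99389365-99389614. Capitals mark matches on either strand to the AP-1 motif TGANTCA, the antioxidant response element core TGACNNNGC or the TATA letters TATAAA.
Krt42: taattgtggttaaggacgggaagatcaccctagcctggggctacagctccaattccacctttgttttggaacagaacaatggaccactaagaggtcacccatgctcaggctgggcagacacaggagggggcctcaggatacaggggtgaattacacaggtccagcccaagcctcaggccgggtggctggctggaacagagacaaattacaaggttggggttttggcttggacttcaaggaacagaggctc
Krt13: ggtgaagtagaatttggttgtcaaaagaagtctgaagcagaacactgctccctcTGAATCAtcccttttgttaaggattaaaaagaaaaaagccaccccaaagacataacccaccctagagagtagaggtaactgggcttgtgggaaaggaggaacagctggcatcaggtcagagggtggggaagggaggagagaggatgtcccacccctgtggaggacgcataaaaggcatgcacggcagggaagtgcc
Krt23: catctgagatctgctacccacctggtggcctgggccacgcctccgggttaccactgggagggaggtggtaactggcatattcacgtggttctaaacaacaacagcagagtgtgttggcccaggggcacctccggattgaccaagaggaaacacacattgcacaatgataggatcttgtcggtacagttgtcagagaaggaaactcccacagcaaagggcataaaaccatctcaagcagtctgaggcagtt
Krt76: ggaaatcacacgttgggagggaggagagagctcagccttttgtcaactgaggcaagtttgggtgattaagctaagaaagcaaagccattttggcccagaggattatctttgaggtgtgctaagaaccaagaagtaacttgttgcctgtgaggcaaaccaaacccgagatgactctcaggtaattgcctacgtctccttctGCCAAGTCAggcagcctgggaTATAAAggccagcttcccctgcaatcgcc
Krt10: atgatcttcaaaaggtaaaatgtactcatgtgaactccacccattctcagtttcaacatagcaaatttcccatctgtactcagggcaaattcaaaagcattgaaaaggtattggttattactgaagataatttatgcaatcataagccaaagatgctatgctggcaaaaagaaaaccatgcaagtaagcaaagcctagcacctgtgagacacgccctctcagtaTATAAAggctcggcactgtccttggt
The letters TGANTCA were found in the window of 1 of 23 keratins with an entry (4.35%), Krt13, against 6.75% of 32851 promoters of the same length. In the Krt13 window shown the middle base was A, outside the AP-1 consensus. The antioxidant response core was in 4 of 23 (17.4%), Krt76 among them, against 10.2%, and TATAAA in 9 of 23 (39.1%), Krt10 and Krt76 among them, against 12.4%. The windows of Krt42 and Krt23 held none of the 3. A second start site of Krt13 is listed, and its window held 2 matches to TGANTCA. Krt17, Krt16, Krt6a, Krt6b, Krt80, Krt1, Krt4, Krt15 and Krt19 had no entry.

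CD34- a6-high cells were then compared with CD34- a6-low cells, which asks what goes with a high level of the basal integrin. No keratin passed the test, against 0.00683% of the 14652 genes, that is 1 gene, by edgeR. Same-numbered libraries were not paired by every label here (WT2 correlated at 0.0411). With the label as a block 60 genes passed (0.41%, with 0.0546% higher and 0.355% lower) and 1 keratin, Krt23 (-2.69 ± 0.47, edgeR adjusted p = 0.0495). At an unadjusted p under 0.05 there were 5 keratins and 1621 genes, and DESeq2 called 3 keratins and 242 genes. The median log2 difference was 0.02 for the keratins and -0.02 over all genes. Krt17 (log2 difference -1.07 ± 0.21, edgeR adjusted p = 0.167) and Krt79, a keratin of the sebaceous duct and upper follicle (-4.32 ± 0.97, 0.189), were lower in a6-high cells without overlap of the libraries, 2 of 32 keratins against 1.77% of all genes.

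Krt79 was at 6.18, 8.98, 9.08, 2.15 and 5.45 CPM in the a6-high libraries KO1, KO2, WT1, WT2 and WT3 and at 130.5, 36.8, 110.0, 407 and 76.8 CPM in the a6-low ones. The a6-low libraries all lay above 36 CPM and the a6-high ones below 10 CPM. Krt17 was at 8853, 6270, 4994, 6677 and 5870 CPM in a6-low cells, every one above the highest a6-high value of 4492 CPM. Krt16 was at 9792, 4807, 4533, 7367 and 5833 CPM in a6-low cells (log2 difference -0.99 ± 0.28, edgeR adjusted p = 0.246), with 1 a6-high library, WT3 at 4808 CPM, inside that range. Krt23 (-2.52 ± 1.06) and Krt77 (-1.33 ± 0.89) were the others of lowest difference, and Krt20 (1.17 ± 1.54), Krt25 (1.102 ± 0.84) and Krt32 (1.02 ± 0.89) those of highest, all at levels of a few CPM or less.

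With the a6-low libraries WT1 and KO2 set aside, 2.23% of 15364 genes passed, and 4 of 32 keratins. Krt17 (-1.23 ± 0.23, edgeR adjusted p = 0.0228), Krt16 (-1.27 ± 0.28, 0.0401) and Krt79 (-4.78 ± 1.03, 0.0383) fell in a6-high cells, and Krt5 rose (1.65 ± 0.38, 0.0478). Krt5, the basal type II keratin, was at 12840, 9745, 7135, 13470 and 7735 CPM in a6-high cells and at 3132 (KO1), 2426 (WT2) and 4493 (WT3) CPM in the 3 a6-low libraries with low Itga6. It stood at 11350 (KO2) and 13110 (WT1) CPM in the 2 set aside. Krt5 in a6-low cells was thus low where Itga6 was low and high where Itga6 was high. The libraries were set aside on Itga6 in these same data. They were also the a6-low libraries highest in Krt5 and lowest in Krt16, so those calls are not independent of that choice. Krt14 was at 37140, 39980, 53040, 31910 and 50610 CPM in the 5 a6-low libraries. Within each genotype its order was that of Itga6, over a narrower range than Krt5.

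Within the a6-low libraries the suprabasal pair was highest where Itga6 was low. Krt10 was at 8555, 1833, 2837, 12270 and 5777 CPM and Krt1 at 12490, 2125, 2755, 10950 and 5416 CPM in the a6-low libraries KO1, KO2, WT1, WT2 and WT3. In both genes the KO2 and WT1 libraries were the lowest of the 5. In a6-high CD34- cells Krt10 was at 4440, 2640, 1246, 3501 and 2350 CPM and Krt1 at 5947, 2448, 820, 3749 and 1831 CPM. The KO1 library of Krt1 there lay above the a6-low WT3 library. The log2 differences were -1.05 ± 0.58 for Krt10 and -1.19 ± 0.62 for Krt1, neither past the test (edgeR adjusted p = 0.546 and 0.522). With the a6-low libraries WT1 and KO2 set aside they were -1.60 ± 0.55 and -1.75 ± 0.59, again not past it (0.175 and 0.166). The partners kept close to each other, with a Krt1 to Krt10 count ratio of 0.658 to 1.46 over the 15 libraries, whereas Krt5 ran from 0.0760 to 0.292 of Krt14.

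**Figure D4:**
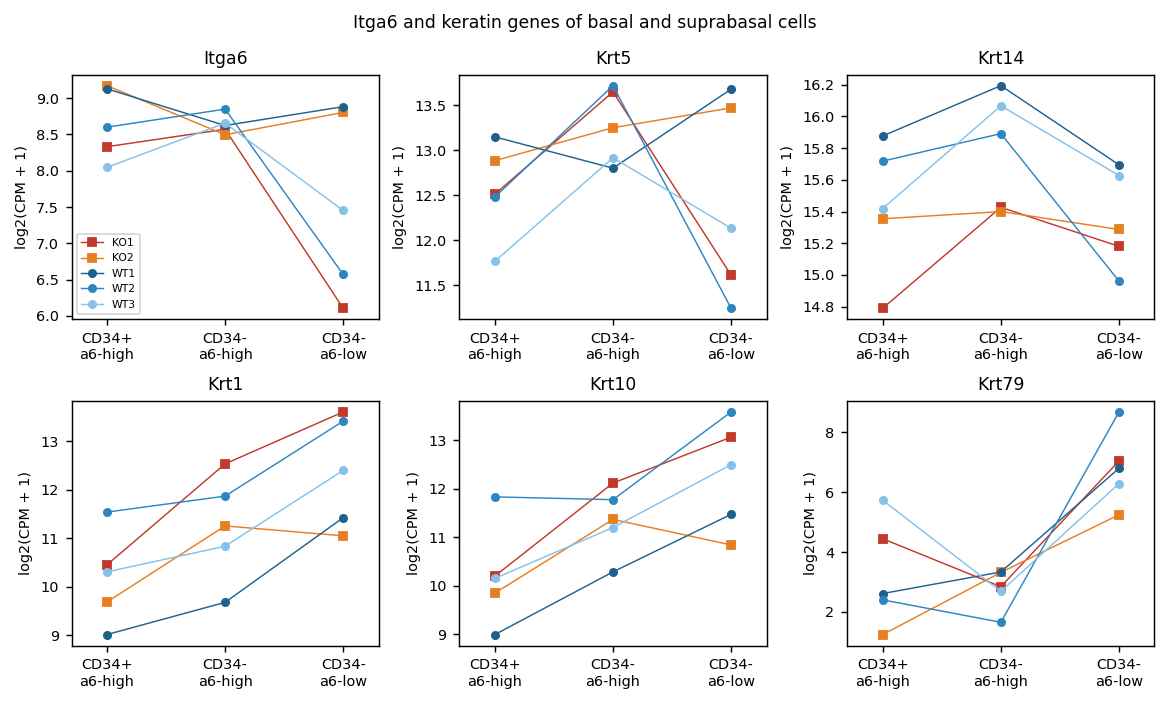
Itga6, Krt5, Krt14, Krt1, Krt10 and Krt79 as log2(CPM + 1) in the 3 populations, with a line for each label. In a6-low cells the KO2 and WT1 points are the highest of Itga6 and Krt5 and the lowest of Krt1 and Krt10, and the Krt79 points all lie above those of CD34- a6-high cells.

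The ends of the sort, CD34+ a6-high and CD34- a6-low cells, were compared last among the populations. This comparison shares its libraries with the preceding ones. Krt42 was 2.82 ± 0.46 higher on the log2 scale (edgeR adjusted p = 0.0111) and Krt80 fell by 3.50 ± 0.56 (0.0101), which makes 2 of 32 keratins against 4.93% of all genes (2.25% higher and 2.68% lower). Krt80 was at 37.6, 9.91, 12.9, 26.7 and 15.6 CPM in a6-low cells, all above the highest CD34+ value of 3.27 CPM, the 1 keratin of 32 without overlap (6.91% of all genes). Krt42 was at 14.8, 24.3, 13.6, 2.88 and 6.35 CPM in a6-low cells, and only the WT1 CD34+ library (22.6 CPM) reached down into that range. Krt1 (-2.36 ± 0.65, edgeR adjusted p = 0.0562), Krt10 (-2.15 ± 0.60, 0.0603) and Krt79 (-3.10 ± 0.91, 0.0691) did not pass.

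With the label as a block, 11.8% of genes passed (5.68% higher and 6.15% lower) and 11 keratins. Krt42, Krt23, Krt13, Krt76, Krt18, Krt78 and Krt6b rose, and Krt1 (-2.21 ± 0.24, edgeR adjusted p = 0.00144), Krt80 (-3.53 ± 0.41, 0.00171), Krt10 (-2.08 ± 0.28, 0.00290) and Krt79 (-3.55 ± 0.98, 0.0427) fell. With the a6-low libraries WT1 and KO2 set aside, 6.37% of 15364 genes passed (3.78% higher and 2.59% lower) and 4 keratins, Krt42 (3.38 ± 0.54, edgeR adjusted p = 0.00698), Krt80 (-3.93 ± 0.54, 0.00336), Krt1 (-2.92 ± 0.60, 0.0174) and Krt10 (-2.69 ± 0.56, 0.0180). The libraries set aside were also the a6-low ones lowest in Krt1 and Krt10, so those calls are not independent of that choice. Without the CD34+ KO1 library neither Krt42 (edgeR adjusted p = 0.0546) nor Krt80 (0.0678) passed, and with all 3 KO2 libraries set aside Krt42 did not (0.0571). The log2 differences were then 2.72 and 3.11 for Krt42, and -3.45 for Krt80 without the CD34+ KO1 library.

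**Figure D5:**
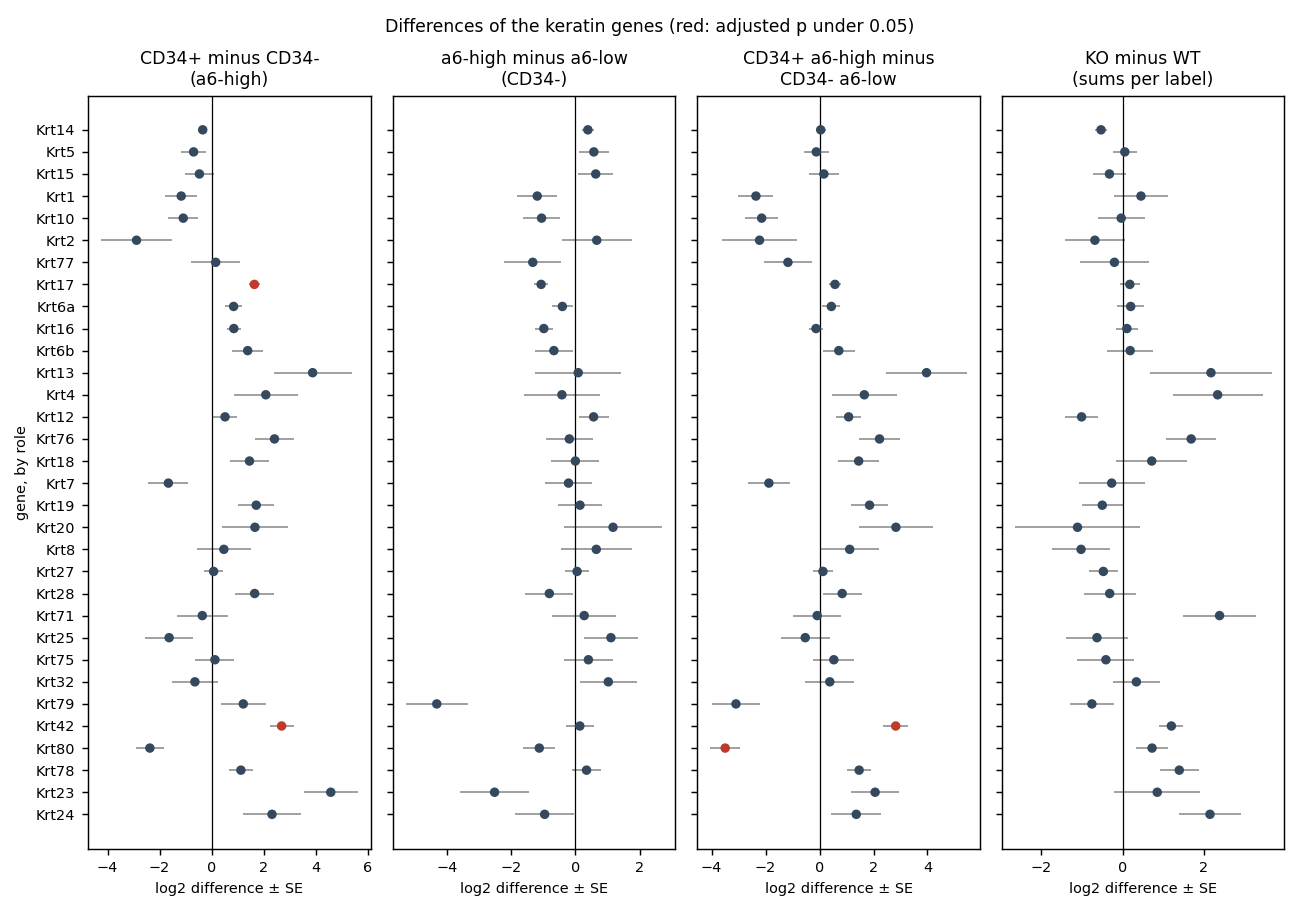
Log2 differences (x axis) of the 32 keratins (y axis, by role) with SE bars in 4 comparisons, the edgeR estimates without a block. Points in red have an adjusted p under 0.05: Krt17 and Krt42 in the CD34 panel, Krt42 and Krt80 in the comparison of the ends of the sort, and none in the a6 panel or between the genotypes.

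Libraries labelled KO and WT did not differ in any keratin at the threshold. By edgeR 1 gene passed in each population (0.00683% of genes) and 1 with the counts summed per label (0.00641% of 15597 genes), and 0 of 32 keratins in each. The lowest adjusted p of a keratin was 0.652 in CD34+ a6-high, 0.498 in CD34- a6-high and 0.865 in CD34- a6-low cells, and 0.4605 on the sums. At an unadjusted p under 0.05 there were 4, 4, 3 and 7 keratins in that order. These counts are given without those of all genes, so they are not read as a result. DESeq2 called no keratin in any of the 4. It gave no adjusted p, however, to most keratins in CD34- a6-high cells, Krt71 and Krt24 among them, and to several in CD34+ a6-high cells. Those could not be called. With WT1 and KO2 set aside in a6-low cells, 1 gene (0.00651%) and 0 keratins passed there, with an unadjusted p under 0.05 for 1062 genes and 3 keratins. Keratins without overlap between the genotypes numbered 6, 7, 5 and 6, against 28.1%, 30.2%, 14.9% and 30.4% of all genes. Krt24, which met the count rule only through libraries labelled KO, was among them in both a6-high populations and on the sums.

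Krt14 summed over the populations was at 37040 and 41150 CPM in KO1 and KO2 and at 61220, 52950 and 55250 CPM in WT1, WT2 and WT3. The 2 KO sums lay below the 3 WT sums (log2 difference -0.53 ± 0.16, edgeR adjusted p = 0.4605). By population the Krt14 difference was -0.58 ± 0.26 in CD34+ a6-high, -0.64 ± 0.26 in CD34- a6-high and -0.23 ± 0.26 in CD34- a6-low cells. Krt42 summed to 60.4 and 49.6 CPM in KO and to 15.9, 24.1 and 31.7 CPM in WT (1.20 ± 0.30, edgeR adjusted p = 0.4605). Krt42 pointed the same way in each population, with differences of 1.26, 0.91 and 1.34. Krt78 (1.40 ± 0.48), a keratin of differentiating epithelium, and Krt76 (1.69 ± 0.62) also had KO sums above all WT sums.

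Of the 32 keratins, 11 were higher and 4 lower in KO in all 3 populations and 17 were mixed. These directions were not counted over all genes, so they are not read as a result. On the sums the stress keratins lay near 0, with differences of 0.11 ± 0.27 (Krt16) to 0.20 ± 0.33 (Krt6a), and 0.18 ± 0.24 for Krt17. By population Krt17 was at -0.11 ± 0.30 in CD34+ a6-high, 0.73 ± 0.29 in CD34- a6-high (edgeR adjusted p = 0.510) and 0.37 ± 0.29 in a6-low cells. In CD34- a6-high cells both KO libraries lay above the WT ones, where 30.2% of all genes were without overlap in either direction. The keratins with the highest differences on the sums were Krt71, Krt4 and Krt13 (2.39 ± 0.90, 2.34 ± 1.11 and 2.18 ± 1.49) and those with the lowest Krt20, Krt8 and Krt12 (-1.11 ± 1.55, -1.02 ± 0.72 and -1.01 ± 0.42). For Krt71, a root sheath keratin, the KO2 sum was 3.79 CPM and all other sums lay between 0.324 and 0.483 CPM, so 1 label carried the difference. In CD34+ a6-high cells the ends were Krt2, Krt4 and Krt13 (4.82 ± 2.17, 2.87 ± 1.67 and 2.44 ± 1.83) and Krt25, Krt77 and Krt28 (-3.73 ± 1.48, -1.57 ± 1.34 and -1.29 ± 1.04). Single libraries carried some of these: without KO2 (1.6 CPM, KO1 at 0) Krt2 was at -2.11, without KO1 (257 CPM, KO2 at 6.45) Krt4 was at -1.48, and without WT2 Krt77 was at 0.074. In CD34- a6-high cells Krt71 (4.85 ± 1.35) and Krt28 (2.12 ± 1.08) were high. Krt20 (-2.72 ± 2.002), Krt2 (-1.11 ± 1.55) and Krt12 (-0.75 ± 0.67) were low there. Krt24 had 13 counts in both KO libraries of that population and 0 in its 3 WT libraries. Krt24 met the count rule only through 4 libraries labelled KO, and Krt8 only through 3 labelled WT. The genotype differences of Krt24 and Krt8 are therefore not independent of that rule. In CD34- a6-low cells Krt23, Krt4 and Krt13 (3.11 ± 1.30, 2.05 ± 1.66 and 1.83 ± 1.88) were high and Krt7, Krt8 and Krt20 (-1.80 ± 1.09, -1.66 ± 1.65 and -1.51 ± 2.20) low.

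Whether the population differences themselves depended on genotype was tested with interaction terms. By edgeR 0 genes (0%) passed for CD34 and 0 for a6, and 0 of 32 keratins in each. At an unadjusted p under 0.05 there were 159 and 168 genes, with 4 and 1 keratins, and DESeq2 called 1 and 0 genes. With the a6-low libraries WT1 and KO2 set aside, 0 genes passed for a6 by edgeR, with 426 genes and 3 keratins at an unadjusted p under 0.05.

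Keratins of other compartments were low. The simple keratins Krt18, Krt7, Krt19, Krt20 and Krt8 took at most 0.0563% of the keratin counts, led by Krt18 at 40.4 CPM in the CD34+ KO2 library. Of the root sheath keratins Krt27 was the most even, at 0.966 to 4.29 CPM, and Krt28 reached 6.31 CPM. Krt32 was the 1 hair shaft keratin of 15 that met the count rule, at 0 to 1.84 CPM. Krt12, a corneal keratin, was at 0.914 to 12.5 CPM, but 42% of its transcript shares 50-base stretches with another gene. Just inside the count rule were Krt8, Krt20, Krt25 and Krt75, with 10 or more counts in 3 libraries each and highest counts of 21, 22, 37 and 14. Just outside were Krt84, Krt90 and Krt86, with 1 library each and highest counts of 24, 37 and 10, and Krt40 was at 0 in every library.

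Genes that act with keratins were counted in 5 lists. Of 15 tested linkers of keratins to junctions, 1 rose in CD34+ a6-high against CD34- a6-high cells, the desmosomal cadherin Dsc2 (log2 difference 1.995 ± 0.33, edgeR adjusted p = 0.0131), at means of 216 and 55.2 CPM. Dsc2 was also higher than in a6-low cells (1.77 ± 0.33, edgeR adjusted p = 0.0156). None of 5 filament aggregators, 20 transcriptional regulators, 11 modifiers of keratin filaments and 8 other intermediate filament genes passed in the first comparison. The smallest p among them belonged to Tchhl1 (3.95 ± 1.21) and Rptn (3.46 ± 1.78), to the transcription factors Gata3 (-1.26 ± 0.30, edgeR adjusted p = 0.0606) and Nfe2l2 (0.85 ± 0.24), to Padi4 (1.92 ± 0.49) and Tgm3 (1.55 ± 0.42), which modify filament proteins, and to Nes (3.41 ± 1.01) and Vim (1.67 ± 0.53). With the block Tgm1, Tgm3, Padi3, Padi4, Nfe2l2 and Grhl3 rose and Gata3 fell. Against a6-low cells 3 of the 20 regulators fell, Gata3 (-1.72 ± 0.30), Ovol1 (-1.07 ± 0.26) and Tfap2c (-0.65 ± 0.17), and Padi4 rose (2.77 ± 0.52), with edgeR adjusted p of 0.0143, 0.0366, 0.0490 and 0.0156. Over all genes 2.68% fell and 2.25% rose. With the block 10 of the 20 regulators fell (Sox9, Klf5, Gata3, Grhl1, Tfap2a, Ovol1, Tfap2c, Cebpa, Junb and Cebpb), against 6.15% of all genes, as did the linkers Dsc1, Dsc3 and Dsg1a, while Dsc2, Hspb1, Padi3 and Padi4 rose. With the a6-low libraries WT1 and KO2 set aside, Dsc2 (1.71 ± 0.40, edgeR adjusted p = 0.0324), Plec, Dst, Dlx3 and Padi4 (3.52 ± 0.63, 0.0103) rose and Gata3 (-1.42 ± 0.30, 0.0190), Ovol1 (-1.22 ± 0.28, 0.0287), Cebpb and Dsg1a fell. Tfap2c (-0.61 ± 0.21, edgeR adjusted p = 0.109) did not pass. Some lists had no call against a6-low cells in the fit of all libraries without a block. Their smallest p in that fit belonged to Tchhl1 (2.10 ± 1.05), Tchh (0.50 ± 0.26), Vim (-0.87 ± 0.51) and Lmnb1 (0.69 ± 0.41). In the a6 comparison no gene of these lists passed without a block. With it 4 of the 20 regulators (Grhl1, Ovol1, Cebpa and Grhl3) fell in a6-high cells, against 0.355% of all genes, and with the a6-low WT1 and KO2 libraries set aside Plec, Dst and Dsg2 rose and Cebpa and Vim fell. The smallest p without a block belonged to Dsc3 (-0.35 ± 0.14) and Ppl (-0.57 ± 0.27) among the linkers, Klf5 (-0.72 ± 0.15) and Cebpa (-1.21 ± 0.28) among the regulators, Fam83h (-0.56 ± 0.26) and Tchp (0.55 ± 0.27) among the modifiers, Tchhl1 (-1.85 ± 1.36) and Krtdap (-0.55 ± 0.43) among the aggregators, and Vim (-2.54 ± 0.54) and Nes (-2.08 ± 1.01). Between the genotypes on the sums none passed either, with the smallest p for Plec (0.38 ± 0.21) and Dsc3 (0.28 ± 0.16), Rptn (3.71 ± 0.88) and Krtdap (-1.10 ± 0.34), Hoxc13 (1.79 ± 0.52) and Dlx3 (1.32 ± 0.56), Tgm3 (1.54 ± 0.41) and Fam83h (0.52 ± 0.19), and Lmna (-0.93 ± 0.25) and Nefh (1.17 ± 0.60).

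Markers of other cells were also counted in the libraries, and their part in the keratin results was not tested. Fibroblast markers (7 genes, mostly Postn) summed to 0.902 to 8.73 CPM in CD34+ a6-high, 8.51 to 262 CPM in CD34- a6-high and 217 to 286 CPM in a6-low libraries, with Lum at 0 throughout. Endothelial markers (7 genes) summed to 7.31 to 59.4, 1.67 to 3.68 and 1.78 to 20.6 CPM, and macrophage and dendritic cell markers (8 genes) to 21.1 to 44.3, 9.51 to 127 and 31.02 to 178 CPM in the same order. Merkel cell markers (6 genes), which bear on Krt18, Krt8 and Krt20, summed to 0.655 to 24.7, 0.153 to 2.54 and 0.111 to 3.05 CPM. The highest of these sums was nearly all Sox2, which reached 24.4 CPM. Piezo2 reached 1.33 CPM, and Atoh1, Isl1, Chga and Syp stayed at or below 0.410 CPM in every library. Sebocyte markers (6 genes), which bear on Krt79, lay between 0.411 and 7.28 CPM, with Mc5r at 0 in every library. The non-keratin suprabasal markers (11 genes) summed to 3742 to 15430, 2795 to 11910 and 2308 to 16570 CPM in the same order. These sums were mostly Krtdap (2158 to 16220 CPM), with Sbsn at 48.2 to 256 CPM. By gene, 6 of the 11 had log2 differences above 0 between CD34+ and CD34- a6-high cells. In the a6 comparison it was 1, and between the ends of the sort 7, with 0 past the test without a block. Melanocyte markers (6 genes) summed to 140 CPM in the a6-low KO1 library and to 0.937 to 6.60 CPM in the others. Neutrophil and mast cell markers (6 genes, with Cpa3 and Mcpt4 at 0 throughout) summed to 1522 CPM in the a6-low WT2 and 645 CPM in the a6-low KO1 library, and to 68.5 to 490 CPM in the others. These sums were nearly all S100a8 and S100a9, since Csf3r reached only 0.164 CPM and Kit only 0.981 CPM.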

How the data were processed

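Per the labels' protocols, cDNA came from a SMART-Seq v4 kit, and reads carry no strand. The build mm9, HTSeq 0.6.0, STAR 2.3.0 and Picard 1.100 are named in the submitters' processing notes, without their roles. Each file as deposited by the authors lists raw read counts by gene, without normalization. Summary entries without a gene did not enter any library size or test. Among them, reads with more than 1 alignment were 29.86% to 38.04% of the records.

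The test was edgeR's quasi-likelihood F test (edgeR 4.0.16 in R 4.3.3) after TMM scaling and filterByExpr. A single model of the 15 libraries had 1 mean for each genotype and population, and p-values were adjusted by Benjamini-Hochberg at 0.05 over 14652 genes. All 32 keratins passed the filter on low counts. An SE is the log2 difference divided by the root of its F. KO against WT was also tested on counts summed per label (15597 genes). DESeq2 1.42.0, other scalings and filters, the label as a block and left-out libraries were alternatives. The code was tested on simulated data.

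Same-numbered libraries of a genotype correlated in their deviations from group means at 0.13 to 0.456 (CD34+ and CD34- a6-high) and at 0.178 to 0.447 (CD34+ a6-high and CD34- a6-low), so those pairs were taken as paired, on the data alone. Deviations from a mean of 2 libraries mirror each other, so KO1 and KO2 give the same correlation by construction and count once. The block model held all 15 libraries, so the a6-low ones also entered the label effects of the CD34 comparison. CD34- a6-high and a6-low gave 0.0411 to 0.458, and KO against WT -0.368 to 0.0537, and were not taken as paired by that rule. No library repeated another within a group (chi-square per degree of freedom 38.5 to 304).

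Gene identifiers were paired with symbols for 32860 genes. Transcript lengths and shared 50-base stretches came from GENCODE M21, of another build, so levels per kb are approximate. Sequences were read from the RefSeq promoter table. Members, lists and tests were chosen with earlier results of these data known. Named are keratins past the threshold, the most abundant 2 to 4 of each role, the 3 highest and 3 lowest differences of a comparison, those at the edge of the count rule, and in each partner list the genes past the threshold or else the 2 of smallest p.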

Additional observations from a re-analysis of the deposited data

Results flagged for a closer look

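Dixon's test at 95% was run on 96 sets of 5 libraries of a population. In 17 the highest or lowest library stood apart from the other 4. The test gives about 1 in 20 by chance only for normally distributed values of a single group. Here CPM were used without a log and both genotypes were pooled, so the 17 are not read as an excess over chance. All 17 were high values, given here in CPM. In CD34+ a6-high cells these were Krt13 (520) and Krt4 (257) in KO1, where the next highest libraries held 134 and 45.7. Krt2 was at 1.6 in KO2. Krt10 stood at 3644 in WT2, against 1173 in the next library, and Krt77 at 1.455 in the same library.

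In CD34- a6-high cells, 4 keratins stood apart in KO2: Krt71 (8.45), Krt76 (5.34), Krt28 (2.54) and Krt19 (1.445). Krt2 did so in WT2 (3.77) and Krt78 in KO1 (2.08). In CD34- a6-low cells, WT2 was high in Krt79 (407) and Krt7 (19.4), KO2 in Krt4 (50.7) and Krt71 (1.74), KO1 in Krt23 (3.45) and WT1 in Krt25 (1.035). KO2 therefore held 7 of the 17 values. Without its 3 libraries no keratin passed between CD34+ and CD34- a6-high cells, with log2 differences of 1.69 for Krt17 (edgeR adjusted p = 0.0501) and 2.61 for Krt42 (0.125), against 1.64 and 2.69 with them. The causes were not tested.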

How the results depend on the processing

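Of 894 values of 60 single-gene results under alternatives, 793 kept their direction and side of the threshold, 81 passed it anew, 9 lost it and 11 reversed; scaling by other size factors reversed none. Between CD34+ and CD34- a6-high cells, 171 genes and 2 keratins passed. The counts were 1242 and 18 with no filter on low counts, 855 and 6 with DESeq2, 311 and 4 with only the groups compared, 793 and 11 with the replicate block, and 32 and 0 with the KO2 libraries set aside. Leaving out 1 library gave 7 to 258 genes and 0 to 3 keratins. Krt17 was then at an adjusted p of 0.0501 and Krt42 at 0.125 with KO2 set aside. Between a6-high and a6-low CD34- cells, 1 gene and 0 keratins passed, against 602 and 7 with no filter, 242 and 3 with DESeq2, 60 and 1 (Krt23) with the replicate block, and 342 and 4 with the a6-low WT1 and KO2 libraries set aside. It was 3 genes at 10 CPM or more in 2 libraries, 0 with only the groups compared, 0 with KO2 set aside, and 1 to 50 leaving out 1 library. Between the ends of the sort, 722 genes and 2 keratins became 1900 and 16, 1581 and 9, and 1733 and 11 with no filter, DESeq2 and the replicate block, 422 genes with only the groups compared, 4 keratins with the a6-low libraries set aside, and 116 genes and 1 keratin with KO2 set aside; leaving out 1 library gave 41 to 691 genes and 0 to 5 keratins.

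Between the genotypes, 1 gene passed in each population. With no filter these were 195, 256 and 156 genes in CD34+ a6-high, CD34- a6-high and CD34- a6-low cells, with 2 keratins in each of the first pair. DESeq2 gave 26 and 6 in the first and last, only the groups compared 2 and 0, the replicate block 2 in each, and leaving out 1 library 1 to 2. On the sums, 1 gene became 6 with no filter, 143 with DESeq2, 0 with the replicate block and 0 to 10 leaving out 1 library. The interactions went from 0 to 20 and 13 genes with no filter and to 1 for CD34 with DESeq2. The keratin share of 8.305% was 5.18% of all records. Values that changed sign leaving out 1 library ranged, for KO minus WT, from -1.88 to 0.53 (Krt2, CD34- a6-high), -2.31 to 0.17 (Krt7, a6-low), -2.11 to 6.97 (Krt2), -1.48 to 4.95 (Krt4) and -2.20 to 0.074 (Krt77) in CD34+ a6-high cells. On the sums they ranged from -0.025 to 4.40 (Krt13), -7.29 to 0.36 (Krt20, 0.049 with the replicate block) and -0.27 to 3.27 (Krt71). In the a6 comparison they ran from -0.48 to 2.53 (Krt20) and -0.40 to 2.29 (Krt25). The causes were not tested. With 2 libraries labelled KO, leaving 1 out assumes that the other varies like the remaining groups. At this depth 18 of the 32 keratins had under 10 counts in at least 1 library.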
